A study of Homo sapiens with 6 samples.

Results

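Metallothioneins, their activator MTF1 and the zinc exporter SLC30A1 were followed in RNA sequencing libraries of Huh7, a human hepatocellular carcinoma cell line, with and without a raised level of VPS72. The members are 10 gene symbols of the 37822 in the table: MT1E, MT1F, MT1G, MT1H, MT1L, MT1M, MT1X, MT2A, MTF1 and SLC30A1. They were picked by symbol after the lower level of MT2A in this same contrast was known, so differences of the members between the groups are given as descriptions. All cells were infected for 24 h with lentivirus made in HEK293T cells. The control group (FLAG, genotype WT, 3 libraries) received virus for the FLAG tag and the other group (VPS72 overexpression, 3 libraries) virus carrying VPS72, which encodes a part of the chromatin remodellers SRCAP and TIP60. The cells of both groups keep their own VPS72 gene, and both groups come from 1 cell line. No label names separate cultures, so the spread between libraries may be technical.

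Metallothioneins are small proteins very rich in cysteine that bind zinc, copper and cadmium, and the liver is one of their main sites of synthesis. When free zinc rises, the zinc finger transcription factor MTF1 binds metal response elements (MREs) in the promoters of metallothionein genes and of SLC30A1, and transcription of these genes rises. SLC30A1 (ZnT1) then exports zinc across the plasma membrane, while metallothioneins hold it inside the cell. Glucocorticoids, oxidative stress and cytokines that act through STAT3 are other known inducers of this family.

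Total counts ran from 21345279 to 29091824 per library. VPS72 itself ran from 21.4 to 26.7 CPM in the FLAG group (CPM: counts as a share of the library, scaled by the trimmed mean of M-values, TMM) and from 1150 to 1173 CPM in the VPS72 group, as labelled. Hepatocyte markers summed to 19250 to 20060 CPM with FLAG and to 21710 to 22540 CPM with VPS72. Of these markers 7 of 10 rose, where 0.421% of all tested genes rose. AFP, APOB, FGB and TF among them lie above 200 CPM. In that band the median log2 fold change of tested genes was 0.04, and 27.1% were below 0. The share over all genes is thus an unlike background for them. Summed fibroblast markers had 171 to 185 CPM against 205 to 212 CPM, with 1 of 5 tested, LUM, higher past the threshold, and summed immune markers 11.4 to 13.0 against 13.7 to 14.7 CPM. Summed HEK293T markers (1 of 8 tested), with NEFL at 0 in all libraries, had 9.07 to 10.3 against 9.07 to 9.80 CPM. Endothelial markers (1 of 6 tested) had 2.84 to 4.55 against 4.13 to 4.94 CPM. The part of these differences in the results on metallothioneins was not tested. In bulk RNA, fewer cells of a type and less RNA per cell cannot be told apart.

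The stretches of 250 bases before the start site are shown for MT2A, the most abundant metallothionein, for MT1X, a type 1 paralog, and for SLC30A1, the other known MTF1 target among the members. They come from RefSeq (GRCh38.p14) and are written 5′ to 3′ on the strand of the gene. Promoters were matched for 5 of the 10 members, 3 of them metallothioneins (MT2A, MT1X and MT1H). Capitals mark the MRE core, searched as TGCGCNC or TGCACNC on both strands, and the AP-1 site, searched as TGACTCA or TGAGTCA on both strands. The sources used here do not tie the count table to a build, and the sequences were matched by symbol. MT2A lies at chr16:56608334-56608583 (plus strand), MT1X at chr16:56682220-56682469 (plus strand) and SLC30A1 at chr1:211579162-211579411 (minus strand), each stretch ending at the base before the annotated start.
MT2A: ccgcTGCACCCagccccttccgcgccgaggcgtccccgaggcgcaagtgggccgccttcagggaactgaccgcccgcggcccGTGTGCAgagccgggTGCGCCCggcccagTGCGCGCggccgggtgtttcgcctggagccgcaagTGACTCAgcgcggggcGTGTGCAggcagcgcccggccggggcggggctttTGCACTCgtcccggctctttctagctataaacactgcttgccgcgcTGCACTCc
MT1X: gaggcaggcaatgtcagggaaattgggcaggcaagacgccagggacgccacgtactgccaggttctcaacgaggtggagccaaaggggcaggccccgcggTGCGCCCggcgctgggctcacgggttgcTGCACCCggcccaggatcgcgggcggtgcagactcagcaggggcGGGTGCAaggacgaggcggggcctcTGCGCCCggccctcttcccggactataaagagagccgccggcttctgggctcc
SLC30A1: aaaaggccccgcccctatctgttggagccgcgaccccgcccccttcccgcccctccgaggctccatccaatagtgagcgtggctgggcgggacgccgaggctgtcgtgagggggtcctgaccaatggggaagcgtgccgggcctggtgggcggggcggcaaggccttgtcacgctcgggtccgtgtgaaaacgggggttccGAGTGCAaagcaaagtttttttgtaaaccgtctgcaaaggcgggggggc

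The MT2A stretch held 7 MRE cores and 1 AP-1 site, TGACTCA, at bases -104 to -98 from the start site. The MT1X stretch held 4 MRE cores and the MT1H stretch 8, with no AP-1 match in either. In SLC30A1 there was 1 MRE core, read on the opposite strand at bases -49 to -43, and in MTF1 there was none. Among 35116 promoter stretches of the same length in the table, 24.8% held at least 1 MRE core, 1.58% held 3 or more, and 4.2% held an AP-1 site. A GC box, GGGCGG on either strand, was found 2 times in MT2A, 2 times in MT1X, 6 times in SLC30A1 and 1 time each in MT1H and MTF1, and in 42.6% of all stretches. In MT1X, 1 GC box overlaps an MRE core. MT2A and MT1X also held TATAAA, starting at bases -29 and -30, which 10.7% of all stretches hold on either strand. A match is a run of letters, not a measured binding site.

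**Figure D1:**
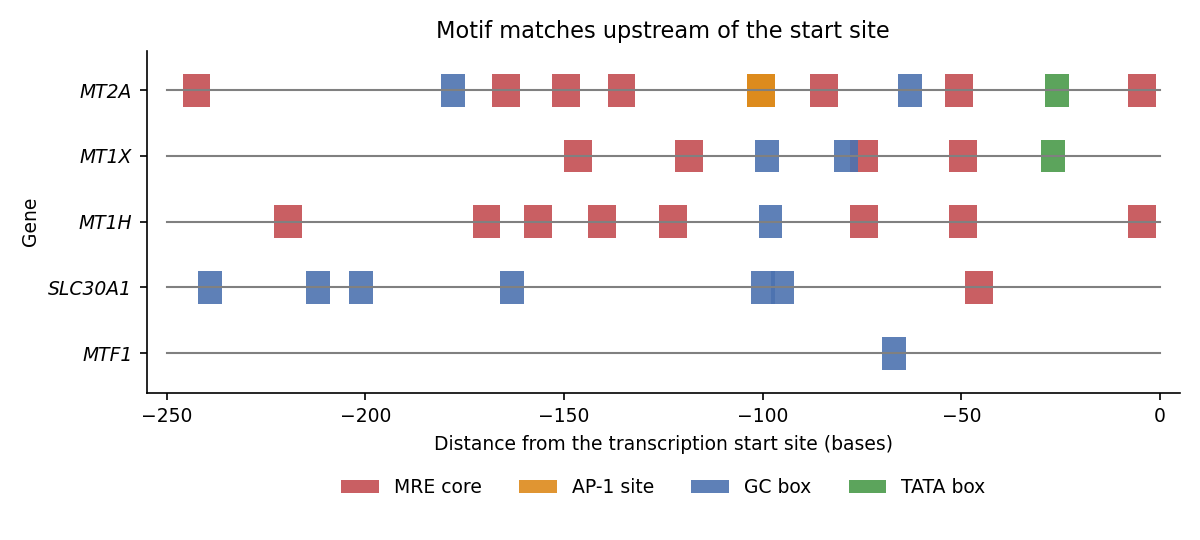
Motif matches in the 250 bases before the start site (x axis: distance from the transcription start site in bases; y axis: the 5 members with a promoter in the table; boxes: matches on either strand). MT2A, MT1X and MT1H hold 7, 4 and 8 MRE cores, SLC30A1 holds 1 and MTF1 holds none.

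The metallothionein genes lie next to each other on chromosome 16 and are close copies. Over the 186 bases of coding sequence (GENCODE release 29), identity between 2 of the 7 protein-coding members ran from 88.7% for MT1F and MT1X to 95.2% for MT1G and MT2A. Of all 50-base windows of the principal transcript, 4.9% of those of MT2A, 5.3% of MT1E and 3.6% of MT1F occurred unchanged in another metallothionein gene, against 16% for MT1X, 20.4% for MT1H and 20.2% for MT1G. The level of a single paralog therefore depends on how the authors' counting divided reads from the shared part, and the sum over paralogs depends on it less. The table holds estimated counts, and the sources used here give no read length.

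Compared per kilobase of transcript, the order of levels in FLAG libraries was led by MT2A, at 46.9 ± 4.21 CPM per kb (SD, n = 3 here and below). MT1E followed at 33.9 ± 2.25 CPM per kb. SLC30A1 (22.5 ± 0.425 CPM per kb) and MT1X (21.3 ± 1.81) did not differ beyond their spread. The length used is that of the full transcript, 450 bases for MT1X and 5474 for SLC30A1, without correction for the size of sequenced fragments. The spread between libraries does not cover this, so the order between short and long transcripts is uncertain. MT1F stood at 17.0 ± 1.12 CPM per kb and MTF1 at 8.02 ± 0.286. MT1L (4.48 ± 1.46 CPM per kb), which is annotated as a transcribed pseudogene, stood above MT1M (2.12 ± 0.403). MT1H (2.00 ± 1.47 CPM per kb) did not differ from MT1M beyond the spread. It lay below MT1L within each FLAG library, at 1.57, 0.791 and 3.63 against 3.32, 4.01 and 6.11 CPM per kb in replicates 1 to 3. MT1G had 0 counts in every library, which allows a level of up to 0.104 to 0.140 CPM (3 counts, counting error only).

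In the VPS72 libraries the metallothionein paralogs that could be tested all had a lower mean than in FLAG. Their log2 fold changes ran from -0.34 for MT1F to -1.62 for MT1H, with a median of -0.54. All 14253 tested genes had a median of -0.00. Tested genes of 5 to 20 CPM, the band of MT1F and MT1X, had a median of -0.03. That median was -0.07 at 1 to 5 CPM, which holds MT1L and MT1M, and -0.11 below 1 CPM, which holds MT1H. Values below 0 made up 58.8%, 59.2% and 57.9% of these bands. MTF1 differed by -0.03 and SLC30A1 by -0.15 on the same scale. Across all genes, 0.617% passed the Benjamini-Hochberg threshold of 0.05 in edgeR's quasi-likelihood test, 0.196% as lower and 0.421% as higher. Of the 10 members 9 passed the filter on low counts, and of these 1, MT2A, fell and 0 rose. These members were chosen with this contrast known, so nothing is read from that count. The groups did not overlap, with VPS72 lower, for 6 of the 9 tested members (MT2A, MT1E, MT1F, MT1X, MT1M and SLC30A1), and with VPS72 higher for 0. Of all tested genes, 17.2% had no overlap, 8.47% with VPS72 lower and 8.76% with VPS72 higher.

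**Figure D2:**
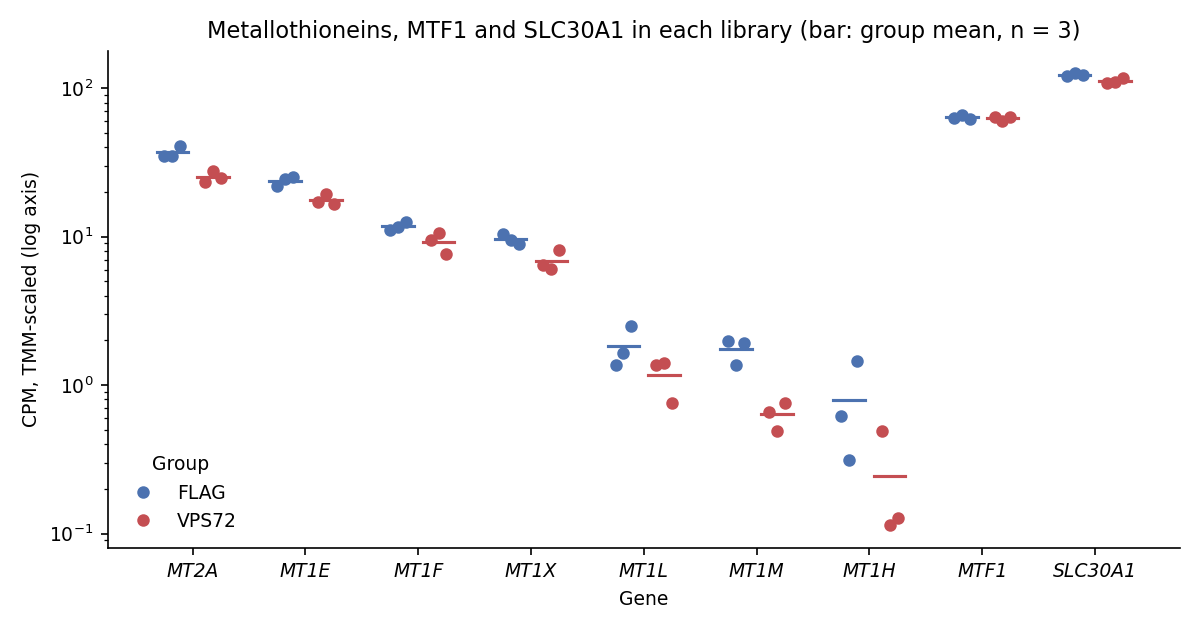
Level of each member in each library (y axis: TMM-scaled CPM on a log axis; points: libraries, blue FLAG and red VPS72; bars: group means, n = 3). MT1G, with 0 counts in all libraries, is not drawn. The groups are apart for MT2A, MT1E, MT1F, MT1X, MT1M and SLC30A1 and overlap for MT1L, MT1H and MTF1.

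MT2A, the main metallothionein of most human tissues, had 34.9, 35.1 and 40.7 CPM in FLAG replicates 1 to 3 and 23.4, 27.7 and 24.7 CPM in VPS72 replicates 1 to 3. Every VPS72 library lay below every FLAG library, and FLAG replicate 3 was the highest. The mean fell by 31.5%, from 36.9 ± 3.31 to 25.3 ± 2.20 CPM, a log2 fold change of -0.54 ± 0.09 (SE). Without each library in turn the MT2A value ran from -0.47 to -0.61. The adjusted p of MT2A stayed under the threshold but reached 0.0487 without VPS72 replicate 3 (edgeR, Benjamini-Hochberg). MT2A was picked with its lower level in this contrast known, so these passes are not separate support. Its log2 fold change was number 498 from the lowest among 14253 genes. Of the 3014 tested genes with a mean of 20 to 50 CPM, the band that holds MT2A and MT1E, 10 fell, and their median log2 fold change was -0.00.

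MT1E, a type 1 metallothionein and the next most abundant paralog, had 22.1, 24.4 and 25.1 CPM in FLAG and 17.0, 19.4 and 16.6 CPM in VPS72 libraries. All VPS72 values of MT1E lay below all FLAG values. Its log2 fold change was -0.43 ± 0.09 and did not pass with the main settings. It passed in 8 of 18 alternative settings, among them all 3 other ways of scaling the libraries, and in none of the 6 that leave out a library.

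MT1X and MT1F were next. MT1X had 10.5, 9.42 and 8.89 CPM in FLAG and 6.40, 6.02 and 8.11 CPM in VPS72 libraries. VPS72 replicate 3 came close to the lowest FLAG library without reaching it, and the log2 fold change of MT1X was -0.49 ± 0.15. MT1F had 11.1, 11.5 and 12.6 CPM in FLAG and 9.46, 10.7 and 7.69 CPM in VPS72 libraries. Here VPS72 replicate 2 lay just under FLAG replicate 1, and the log2 fold change of MT1F was -0.34 ± 0.13, or -0.22 without VPS72 replicate 3. Neither gene passed.

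MT1M, MT1L and MT1H had few counts, and only MT1H came down to the floor of 3 counts, in VPS72 replicates 2 and 3. MT1M had 51, 35 and 41 counts in FLAG and 19, 13 and 18 counts in VPS72 libraries. The lowest FLAG value of MT1M, 1.37 CPM, was above the highest VPS72 value, 0.760 CPM, and its log2 fold change of -1.46 ± 0.38 was number 24 from the lowest of all tested genes. It did not pass with the main settings and passed in 2 of 18 alternatives, without a filter on low counts and with DESeq2 without independent filtering. MT1L had 35, 42 and 54 counts in FLAG and 39, 37 and 18 counts in VPS72 libraries, and its groups overlapped (log2 fold change -0.63 ± 0.36). The value of MT1L was -0.35 without FLAG replicate 3 and -0.41 without VPS72 replicate 3. MT1H had 16, 8 and 31 counts in FLAG and 14, 3 and 3 in VPS72 libraries. Its groups overlapped as well, its log2 fold change was -1.62 ± 0.67, and it moved between -2.65 and -0.90 as single libraries were left out, with -0.90 without FLAG replicate 3 and -2.65 without VPS72 replicate 1. MT1H passed the filter through 2 FLAG libraries and 1 VPS72 library.

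**Figure D3:**
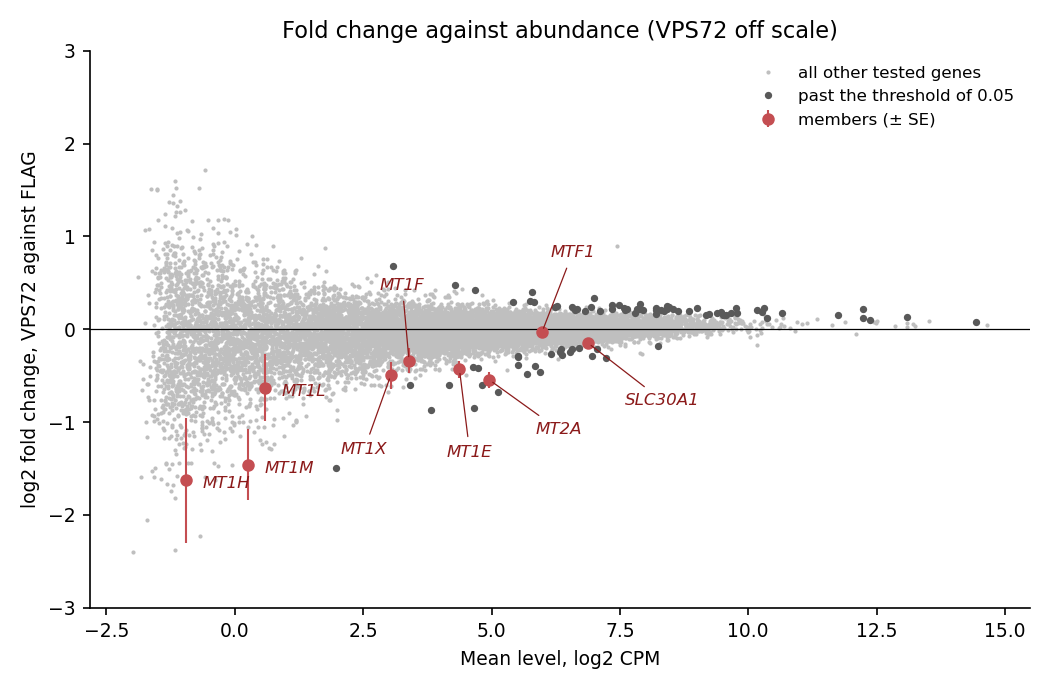
Log2 fold change of VPS72 against FLAG (y axis) by mean level in log2 CPM (x axis) for the tested genes, with members in red (bars: ± SE) and other genes past the threshold in dark grey. MT2A, MT1E, MT1F and MT1X lie between -0.34 and -0.54, and MT1M and MT1H lie lower at a level where all genes scatter more.

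The coefficient of variation within groups was 8.84% for MT2A and 7.66% for MT1E. The median was 7.78% over all tested genes and 6.25% in the band of 20 to 50 CPM that holds both. MT1F had 12.3% and MT1X 13.0% (band median 10.3% at 5 to 20 CPM). MT1M had 20.1% and MT1L 31.5% (21.9% at 1 to 5 CPM), and MT1H had 80.7% (41.4% below 1 CPM). MTF1 and SLC30A1, with far more counts, had 3.69% and 2.96% (3.96% at 50 to 200 CPM).

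Over the 8 metallothionein members, the FLAG libraries had 2117, 2135 and 2002 counts (replicates 1 to 3) and the VPS72 libraries 1690, 1736 and 1391. As a share of the scaled library this was 82.5, 83.8 and 93.1 CPM against 58.8, 65.8 and 58.7 CPM. The highest VPS72 library, replicate 2, lay below the lowest FLAG library, replicate 1. The summed mean was 86.5 ± 5.80 CPM in FLAG and 61.1 ± 4.05 CPM in VPS72 libraries, a log2 fold change of -0.50 ± 0.06. With every MT1 and MT2 row of the table in the sum, 18 rows with pseudogenes, the value was -0.49 ± 0.06. Without MT2A it was -0.47 ± 0.07, from 49.6 ± 2.52 CPM in FLAG to 35.8 ± 2.06 CPM in VPS72 libraries. The size of the difference was thus close in MT2A and in the sum of the type 1 genes.

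**Figure D4:**
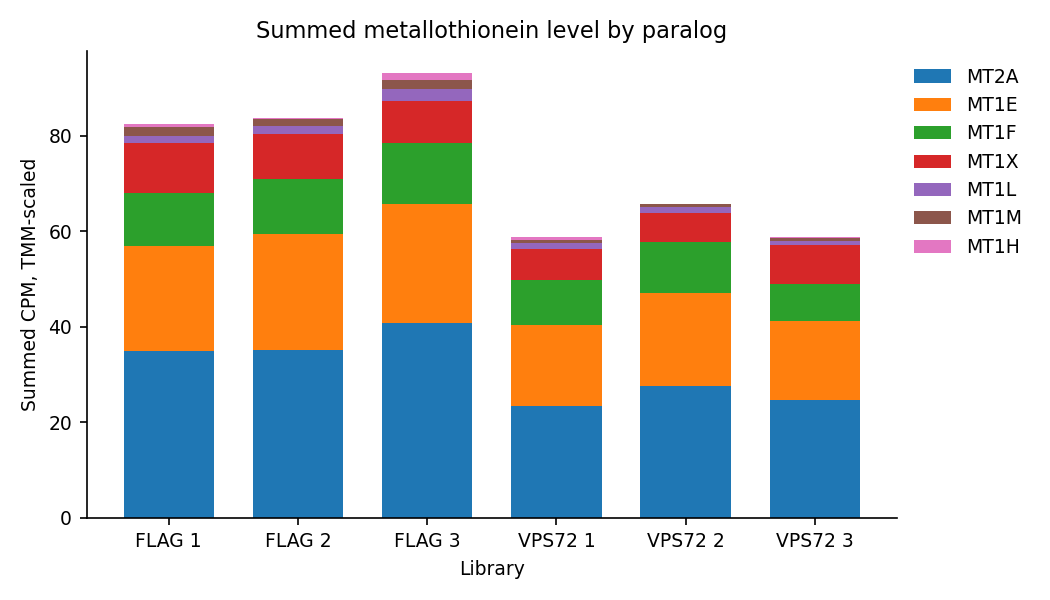
Summed level of the metallothionein members in each library (x axis: library; y axis: TMM-scaled CPM, from 0; colours: paralogs). FLAG libraries sum to 82.5 to 93.1 CPM and VPS72 libraries to 58.7 to 65.8 CPM, with MT2A and MT1E the largest parts of each bar.

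The make-up of the sum stayed close between the groups. MT2A took 42.6 ± 0.963% of metallothionein counts in FLAG and 41.3 ± 1.31% in VPS72 libraries. MT1E took 27.6 ± 1.33% and 28.9 ± 0.621%, MT1F 13.6 ± 0.161% and 15.1 ± 1.77%, and MT1X 11.2 ± 1.59% and 11.3 ± 2.35%. For these 4 genes the shares in the 2 groups overlapped. MT1M had 2.41%, 1.64% and 2.05% of the sum in FLAG and 1.12%, 0.749% and 1.29% in VPS72 libraries, and its shares did not overlap. MT1L and MT1H took 2.11% and 0.893% in FLAG and 1.91% and 0.406% in VPS72 libraries.

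MTF1, the zinc sensor, had 63.3, 66.4 and 62.0 CPM in FLAG and 63.5, 59.9 and 64.4 CPM in VPS72 libraries. The groups overlapped, and the log2 fold change of -0.03 ± 0.05 had a 95% interval from -0.14 to 0.08. Its sign turned without VPS72 replicate 2 (0.0048). These are mRNA levels, and the binding of zinc or DNA by MTF1 protein was not measured. SLC30A1, the exporter, had 121, 126 and 123 CPM in FLAG and 109, 109 and 116 CPM in VPS72 libraries. The groups did not overlap, the log2 fold change was -0.15 ± 0.04 with a 95% interval from -0.24 to -0.05, and SLC30A1 did not pass in the main fit or in any of 19 alternatives. The interval of MT2A on the same scale ran from -0.73 to -0.36, and the difference between the genes was not tested.

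The rest of the metallothionein family was nearly silent. Of 14 listed rows in the table, which include MT1L and MT1H, 2 passed the filter on low counts, MT1L and MT1H. MT1A, MT1JP and MT1P1 had means from 0.166 to 0.365 CPM in either group, and MT3, a form typical of brain, and MT4, typical of squamous epithelium, had at most 1 count in a library. Around the cluster, 7 of the 10 nearest protein-coding genes, a set added after the data were seen, were tested and 0 passed by edgeR. Their median log2 fold change was 0.06. The most abundant of them, NUDT21, a factor in 3′ end processing, had 122 ± 4.86 CPM in FLAG and 129 ± 4.25 CPM in VPS72 libraries, and HERPUD1, a protein of endoplasmic reticulum stress named after its values were seen, 30.3 ± 1.70 and 27.9 ± 3.92 CPM.

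Other zinc transporters did not pass. Of 9 further exporters of the SLC30 family, 6 were tested and 0 rose or fell by edgeR, with a median log2 fold change of 0.01. SLC30A7 (ZnT7), which loads zinc into the Golgi, had 109 ± 3.48 CPM in FLAG and 110 ± 3.04 CPM in VPS72 libraries. SLC30A10, named after its values were seen, is a manganese exporter of the liver. It had 54.2 ± 1.58 CPM in FLAG and 61.7 ± 0.446 CPM in VPS72 libraries, with no overlap between the groups (0.19 ± 0.05 on the log2 scale; edgeR, Benjamini-Hochberg adjusted p = 0.132). Of 14 importers of the SLC39 family, 11 were tested and 0 passed by edgeR, with a median of 0.04. SLC39A14 (ZIP14), the main ZIP importer of hepatocytes under inflammation, had 335 ± 3.15 CPM in FLAG and 363 ± 7.34 CPM in VPS72 libraries, again without overlap (0.12 ± 0.03; edgeR, Benjamini-Hochberg adjusted p = 0.159).

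Copper and iron genes were counted as the other metals that hepatocytes handle. Of 12 copper genes 0 passed by edgeR, with a median log2 fold change of 0.04. SLC31A1 (CTR1), the copper importer, had 148 ± 0.721 CPM in FLAG and 158 ± 6.13 CPM in VPS72 libraries. Of 13 iron genes 2 rose and 0 fell, with a median of 0.12, where 0.421% of all tested genes rose and 0.196% fell. TF, the plasma iron carrier transferrin, rose from 1151 ± 30.1 to 1311 ± 10.6 CPM (0.19 ± 0.03; edgeR, Benjamini-Hochberg adjusted p = 0.00246), and FTL, the ferritin light chain, from 4643 ± 43.3 to 5045 ± 210 CPM (0.12 ± 0.02; adjusted p = 0.0324). TF is also one of the hepatocyte markers that rose. Both genes lie above 200 CPM, where the 954 tested genes had a median of 0.04 and 27.1% were below 0. The share over all genes is thus an unlike background for them.

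**Figure D5:**
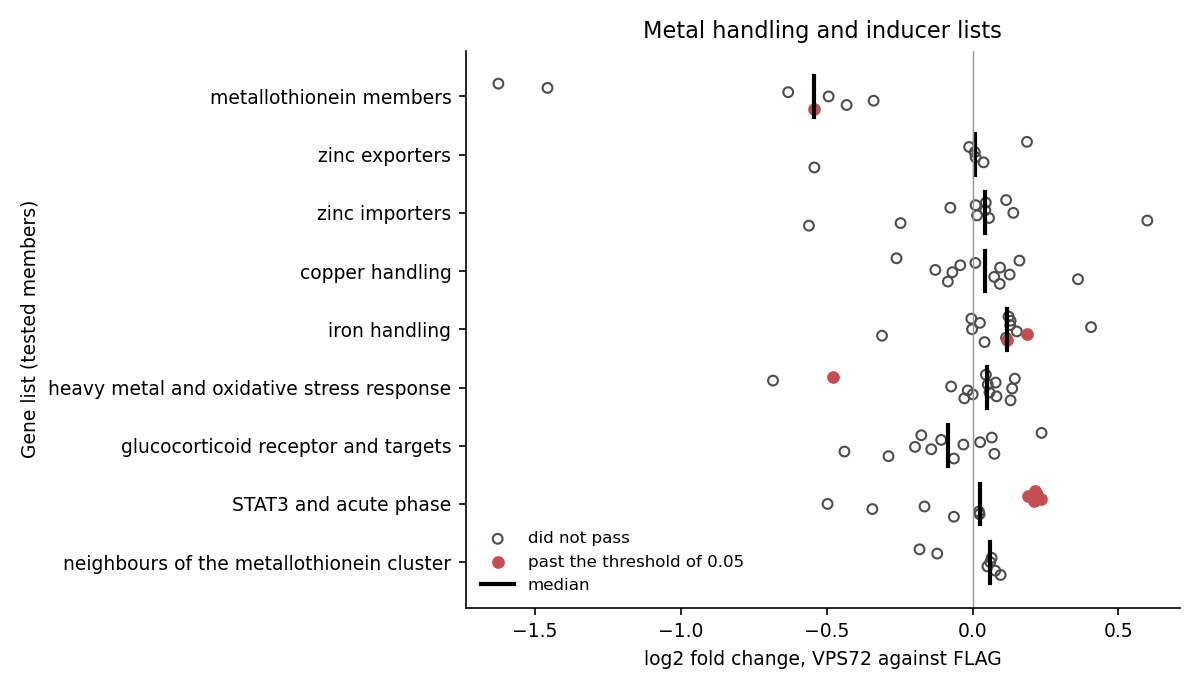
Log2 fold change of VPS72 against FLAG (x axis) for the tested members of each list (y axis; filled: past the threshold; open: did not pass; black bar: list median). The 7 tested metallothioneins have a median of -0.54, and medians of the other lists lie between -0.09 and 0.12.

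Genes known to share inducers with metallothioneins were counted next. Of 14 genes of the heavy metal and oxidative stress response, 1 fell and 0 rose (0.196% and 0.421% of all tested genes), with a median log2 fold change of 0.05. The one that fell was SLC7A11, the cystine transporter, from 60.5 ± 0.511 to 43.4 ± 1.37 CPM (-0.48 ± 0.05; edgeR, Benjamini-Hochberg adjusted p = 0.000542). HMOX1, heme oxygenase and a standard marker of cadmium or heme stress, named after its values were seen, had 25.5 ± 0.926 CPM in FLAG and 27.9 ± 1.30 CPM in VPS72 libraries. Of 12 glucocorticoid receptor genes and targets 0 passed by edgeR, with a median of -0.09. A log2 fold change below 0 was seen in 8 of them and in 51.2% of all tested genes. GLUL, glutamine synthetase, was the most abundant of them at 460 ± 4.03 CPM in FLAG and 482 ± 15.1 CPM in VPS72 libraries. ERRFI1, an inhibitor of the EGF receptor named after its values were seen, had 206 ± 5.03 and 182 ± 2.45 CPM (-0.18 ± 0.04; edgeR, Benjamini-Hochberg adjusted p = 0.0529).

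Of 15 genes of STAT3 signalling and the acute phase 11 were tested, 4 rose and 0 fell (0.421% and 0.196% of all tested genes), with a median log2 fold change of 0.02. Those that rose were the fibrinogen chains FGA, FGB and FGG and the plasma protein ORM1 (FGB is also a hepatocyte marker). Their log2 fold changes were 0.21 for FGA, 0.23 for FGB, 0.19 for FGG and 0.21 for ORM1, with edgeR's Benjamini-Hochberg adjusted p from 0.00123 for FGB to 0.0298 for ORM1. The fibrinogen chains lie above 200 CPM, and ORM1 lies at that edge (185 CPM in FLAG and 215 CPM in VPS72 libraries). Above 200 CPM the median of tested genes was 0.04 and 27.1% were below 0. The share over all genes is thus an unlike background for all of them. SOCS3, the feedback target of STAT3, named after its values were seen, had 7.45 ± 0.177 CPM in FLAG and 5.87 ± 0.199 CPM in VPS72 libraries, without overlap (-0.34 ± 0.14; edgeR, Benjamini-Hochberg adjusted p = 0.343).

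The genes whose level most resembled the summed metallothioneins over the 6 libraries were H2BC7, a core histone gene (r = 0.995 on log2 CPM), SH3RF1 (0.994), CC2D2A (0.990), FICD (0.990) and TRMT61B (0.989). Of 10412 genes with a mean of at least 5 CPM, 1.7% had an r above 0.9, and the 6 points fall into the 2 groups, so these values mostly describe which genes were lower with VPS72. By edgeR 0 of these 5 passed, and TRMT61B came nearest in size to the sum (-0.44 ± 0.12 on the log2 scale; Benjamini-Hochberg adjusted p = 0.121). With each group's mean removed, the closest genes were SLC4A2, B4GALNT1, MBTPS1, FAM76A and CALM3, with r from 0.994 to 0.999. These 5 are the highest of 10412 genes over only 6 libraries, so no link to metallothioneins is read from them. On the scale with group means kept, SLC30A1 had an r of 0.831 with the sum and MTF1 of 0.082.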

How the data were processed

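RNA of 6 Huh7 libraries was isolated with RNAzol and made into libraries with a KAPA RNA HyperPrep kit (per the protocols in the labels). The authors deposited 1 table of whole-number estimated counts for each gene, before any normalization. Per the submitters' processing notes, STAR, RSEM and limma were used, and hg19 and hg38 are both listed, with nothing on which made the table. The sources used here give no versions, strand setting or read length. The unit was read from the values.

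Genes were filtered with filterByExpr by group (minimum count 10, minimum total 15), which left 14253 genes. The groups were compared with the quasi-likelihood test of edgeR (4.0.16, in R 4.3.3), trimmed mean of M-values (TMM) scaling and Benjamini-Hochberg adjustment over all tested genes, at a threshold of 0.05. The SE is the size of the log2 fold change divided by the square root of the F statistic. For the sum, the metallothionein rows were replaced by their sum before the same fit, and no p is given for it. Intervals and the floor of 3 counts cover counting error or the spread between these libraries only. A single value compared by exact permutation, 3 against 3, cannot go below 0.1.

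The members and lists were chosen with earlier results of these data known. Named genes are the 10 members, in each list those past the threshold or otherwise the most abundant, and the 5 genes closest to the sum by Pearson's r over 6 libraries, with and without group means. SLC30A10, HMOX1, ERRFI1, SOCS3, LUM, LYZ, AFP and APOB were picked with their values in view. So were the genes around the cluster (NUDT21 and HERPUD1) and the nearly silent metallothioneins (MT1A, MT1JP, MT1P1, MT3 and MT4). Promoter sequences come from RefSeq (GRCh38.p14). Transcript lengths and sequences come from GENCODE release 29, in which 98.9% of the symbols were found. The transcript is the APPRIS principal one, or the longest where there is none, as in MT1L.

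Alternatives were other scalings (DESeq2 size factors, library size alone, upper quartile), other filters (none, or 1 CPM and 30 counts), DESeq2 (1.42.0), limma-voom (limma 3.58.1), the replicate number as a block, smooth trends with GC content and length or with abundance removed, VPS72 left out of the library size, a threshold of 0.01, other sums, and each library left out. The edgeR fit was tested on simulated data. Libraries of a group differed by more than sampling noise (chi-square per degree of freedom 4.7 to 7.69).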

Additional observations from a re-analysis of the deposited data

How the results depend on the processing

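The log2 fold change of the summed metallothioneins stayed between -0.55 and -0.44 in 21 alternatives, with both ends from leaving out a library (without VPS72 replicate 2 and without FLAG replicate 3). MT2A, picked with its lower level known, passed in all 18 alternatives in which it had an adjusted p. The highest was 0.0487 (edgeR, Benjamini-Hochberg), without VPS72 replicate 3, and no support is drawn from these passes. MT1E, MT1F, MT1L, MT1M, MT1X, SLC30A1 and MT1H kept a value below 0 wherever they were tested. MTF1 ran from -0.050 to 0.0048 as each library was left out, turning above 0 without VPS72 replicate 2. The number of members past the threshold, 1 in the main fit, was 2 with DESeq2 size factors, library size alone, upper quartile factors, the stricter filter, limma-voom and removal of the trend in GC and length, and 3 without a filter on low counts. It was also 3 with DESeq2 without independent filtering, an alternative chosen after seeing the data because default DESeq2 gave an adjusted p for 2 of 9 tested members, MTF1 and SLC30A1, and so gives no count. It was 1 without any single library.

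The count of changed genes, 88 in the main fit, was 264 without a filter, 249 with DESeq2, 214 without its independent filtering, 412 and 48 after removal of the trends in GC and length and in abundance, 32 at the threshold of 0.01, and from 25 (without FLAG replicate 1) to 100 (without FLAG replicate 2) as each library was left out. Leaving out FLAG replicate 3 gave 42, and leaving out VPS72 replicates 1, 2 and 3 gave 35, 52 and 56. The cause was not tested. The split of 60 higher and 28 lower was 32 and 54 with library size alone, 44 and 32 with upper quartile factors, 344 and 68 without the trend in GC and length, and 21 and 27 without that in abundance. With the replicate number as a block, 32 genes changed, MT2A among them. Deviations from the group mean had correlations of -0.209, -0.072 and 0.157 between same-numbered libraries. Those of other pairs ran from -0.281 to 0.337. With 3 libraries a group, these values cannot decide whether a number marks a shared batch. Depth limits MT1H, MT1L and MT1M, each at 54 counts or fewer in a library.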
